A study of Homo sapiens with 4 samples.

Results

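The loci of NR4A1, NR4A2 and NR4A3, the 3 genes of the NR4A family of orphan nuclear receptors, were described through the FAIRE sites around them. FAIRE-seq recovers DNA that formaldehyde does not fix to nucleosomes, and its sites mark accessible chromatin. A site belonged to a locus when any of its bases lay within 500 kb of the annotated body of the gene on GRCh37 (hg19). The rule took 117 of the 65642 sites in the deposited lists, namely 53 of the 34423 sites of the basal list and 64 of the 31219 sites of the overexpression list. The loci, and a stretch upstream of NR4A3 rich in sites of the overexpression list, were selected on the sites called in one list and not in the other, that is, on the contrast described here. The counts of sites by class and condition are therefore a description and were not tested.

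Sites were mapped in cells named H295R/TR SF-1. They are 1 subclone derived from the human adrenocortical tumour cell line H295R, in which doxycycline switches on additional SF-1 (NR5A1), the nuclear receptor that governs steroidogenic genes. The basal group was cultured without doxycycline, and the overexpression group was harvested after 3 days with doxycycline. Each condition had 1 FAIRE library and thus 1 list of sites. Input DNA was not analysed here. With 1 library per condition there is no replicate check, no p-value was computed, and an effect of SF-1 cannot be told apart from one of doxycycline or of the library. The lists carry no read counts, so depth is unknown, and absence of a site from a list does not show that the chromatin was closed.

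NR4A1 (Nur77), NR4A2 (Nurr1) and NR4A3 (Nor1) are transcription factors with no known circulating ligand. Their genes are immediate-early genes, which in adrenocortical cells respond quickly to ACTH acting through cAMP and to angiotensin II acting through calcium, partly by way of CREB-family factors at cAMP response elements (CRE, TGACGTCA). The receptors bind as monomers to the NBRE, AAAGGTCA, which shares the letters AAGGTCA with the element CAAGGTCA to which SF-1 binds, and both kinds of receptor act on genes of steroid hormone synthesis.

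The parts of the sites that covered an annotated start of NR4A2 and of NR4A3 are shown first, since they lie at the promoters of these genes. Each is read from GRCh37 on the strand of the gene, from the edge of the site to the base before the first start inside it, and capitals mark TGACG or its reverse complement CGTCA, which when overlapping make up a full CRE.
NR4A2, chr2:157189275-157189449, minus strand: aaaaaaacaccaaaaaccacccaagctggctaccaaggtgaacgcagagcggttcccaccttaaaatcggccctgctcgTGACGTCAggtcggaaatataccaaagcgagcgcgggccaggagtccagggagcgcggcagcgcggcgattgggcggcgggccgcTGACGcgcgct
NR4A3, chr9:102583901-102584136, plus strand: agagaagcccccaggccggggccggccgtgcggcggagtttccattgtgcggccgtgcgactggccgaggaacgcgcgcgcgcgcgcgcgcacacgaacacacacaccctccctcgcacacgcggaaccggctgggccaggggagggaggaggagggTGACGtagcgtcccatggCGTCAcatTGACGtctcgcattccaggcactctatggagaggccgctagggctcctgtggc

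Both of these promoter stretches held 3 matches to TGACG on either strand, and in NR4A2 a pair of them overlapped to form TGACGTCA. TGACG was looked for after these sequences had been read, and it was present in 17.1% of all basal sites and 18.4% of all overexpression sites. It was present in 8.85% of all basal-only sites, the class of the NR4A2 site. In shared overexpression sites, the class of the NR4A3 site, the share was 24.2%. No share was computed for promoter sites of like GC content. The site over an internal start of NR4A1 is not shown. The full CRE was present in 1.32% of basal and 1.46% of overexpression sites, and the NR4A2 match was the only one in the sites of the 3 loci. The NR4A3 site was called in both lists, whereas the NR4A2 site with the CRE was called in the basal list only. This NR4A2 site covered an internal start and was centred 9.51 kb from the 5′ end of the annotated gene body.

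The next sequences are overexpression-only sites with an SF-1, NBRE or AAGGTCA letter match in the stretch upstream of NR4A3, the overexpression-only site nearest upstream of NR4A3 itself, and the site with most NBRE matches of all 3 loci. They are given on the plus strand of GRCh37, with capitals for CAAGGTCA or CAAGGCCA (SF-1), AAAGGTCA (NBRE), AAGGTCA (the letters common to both) and TGACTCA or TGAGTCA (AP-1), or the reverse complement of any of them.
Stretch, overexpression-only, AAGGTCA, chr9:102112501-102112699: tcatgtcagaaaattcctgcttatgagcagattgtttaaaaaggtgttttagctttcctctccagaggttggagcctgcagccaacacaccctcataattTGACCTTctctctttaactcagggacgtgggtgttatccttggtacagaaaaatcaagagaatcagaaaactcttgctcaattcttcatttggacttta
Stretch, overexpression-only, NBRE, chr9:102363051-102363299: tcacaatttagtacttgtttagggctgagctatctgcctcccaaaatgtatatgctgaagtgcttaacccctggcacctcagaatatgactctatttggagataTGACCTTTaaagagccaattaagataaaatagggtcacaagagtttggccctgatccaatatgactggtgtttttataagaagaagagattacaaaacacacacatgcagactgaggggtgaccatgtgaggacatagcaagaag
Stretch, overexpression-only, SF-1, chr9:102382551-102382649: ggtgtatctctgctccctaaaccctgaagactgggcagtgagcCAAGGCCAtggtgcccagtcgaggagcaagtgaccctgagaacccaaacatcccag
Nearest upstream of NR4A3, overexpression-only, NBRE, chr9:102569651-102569849: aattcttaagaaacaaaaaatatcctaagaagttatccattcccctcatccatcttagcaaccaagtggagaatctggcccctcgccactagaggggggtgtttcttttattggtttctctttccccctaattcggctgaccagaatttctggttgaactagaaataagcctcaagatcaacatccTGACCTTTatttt
Far upstream of NR4A1, overexpression-only, NBRE and AP-1, chr12:52021951-52022249: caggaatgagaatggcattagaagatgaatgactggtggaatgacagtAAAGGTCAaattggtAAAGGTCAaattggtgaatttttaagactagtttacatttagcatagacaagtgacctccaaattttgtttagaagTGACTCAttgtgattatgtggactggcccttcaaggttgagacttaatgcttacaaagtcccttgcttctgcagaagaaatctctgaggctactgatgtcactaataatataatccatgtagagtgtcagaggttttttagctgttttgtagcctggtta

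In the last of these, the first bases of the NBRE matches lay 15 bp apart on the same strand, and the bases between them recurred after the second match. A letter match is a description of the sequence and does not show that a receptor was bound.

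To ask how the 3 loci compared, each site was classed by overlap with the other list: shared with 1 bp or more in common, and otherwise basal-only or overexpression-only. The loci differed in number and class of sites. NR4A2 had few sites, and most of those in its basal list were basal-only, whereas NR4A1 and NR4A3 had more sites in the overexpression list than in the basal list. Over all sites, 45.8% of the basal list was basal-only and 40.3% of the overexpression list was overexpression-only.

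The NR4A1 locus (gene body chr12:52416616-52453291, plus strand, 36.7 kb) held 21 basal sites and 28 overexpression sites. Of these, 6 basal sites were basal-only (28.6%, 95% Clopper-Pearson interval 11.3 to 52.2) and 13 overexpression sites were overexpression-only (46.4%, 27.5 to 66.1). The window is dense in genes, with 24 protein-coding genes among 54 annotated ones, including a cluster of keratin genes. Here and below, intervals reflect counting error alone and treat sites as separate counts, although they are no replicates.

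The NR4A2 locus (gene body chr2:157180949-157198860, minus strand, 17.9 kb) held 13 basal sites and 5 overexpression sites. Basal-only sites were 9 of the 13 (69.2%, 38.6 to 90.9), and a single overexpression site was overexpression-only (20%, 0.505 to 71.6). Only 3 of the 12 annotated genes in this window were protein-coding. The 9 basal-only sites lay on both sides of the gene, up to 496 kb from its 5′ end.

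The NR4A3 locus (gene body chr9:102584137-102629173, plus strand, 45 kb) held 19 basal sites and 31 overexpression sites. Basal-only sites were 6 of the 19 (31.6%, 12.6 to 56.6), and overexpression-only sites were 19 of the 31 (61.3%, 42.2 to 78.2). Of the 19, 12 lay on the 5′ side of the gene and 7 on its 3′ side. There were 5 protein-coding genes among the 16 annotated in the window.

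**Figure D1:**
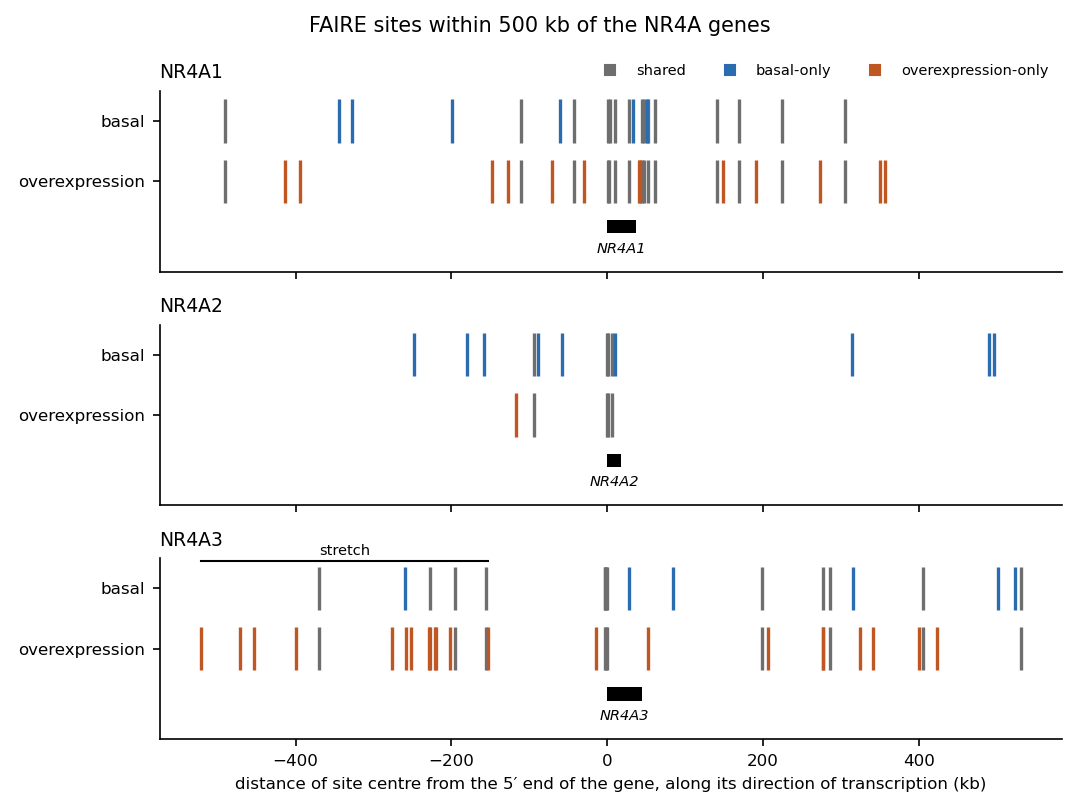
FAIRE sites at the NR4A loci, each drawn as a tick at the distance of its centre from the 5′ end of the gene in kb along the direction of transcription, in the basal and the overexpression list. Grey ticks are shared, blue ticks basal-only and orange ticks overexpression-only sites, black bars are gene bodies, and the line marks the stretch upstream of NR4A3, whose first site lies outside the 500 kb window; the NR4A2 panel holds 1 orange tick and the NR4A3 panel the most.

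The ratio of overexpression to basal sites was 1.33 at NR4A1 (95% interval 0.73 to 2.47 from the exact binomial), 0.385 at NR4A2 (0.107 to 1.15) and 1.63 at NR4A3 (0.893 to 3.06), against 0.907 over both whole lists. In the 500 kb windows with all sites, the 3 intervals include 1 and 0.907. Shared sites enter both totals, and the intervals do not take account of this pairing. They therefore cannot decide whether the lists differ at a locus. Condition-only sites were 6 basal and 13 overexpression at NR4A1, 9 and 1 at NR4A2, and 6 and 19 at NR4A3. Among 18892 windows of protein-coding genes with at least 10 sites, the median ratio was 1 and the central 90% ran from 0.571 to 1.5. A ratio as high as that of NR4A1 was found in 12.3% of these windows and one as high as that of NR4A3 in 3.02%. A ratio as low as that of NR4A2 was found in 0.72%. By comparison, 1.07% of the windows had at least 2-fold more overexpression than basal sites, and 3.2% had at least 2-fold more basal than overexpression sites. With all sites of the 500 kb windows, NR4A2 was past 2-fold in the basal direction, and the other two were not past it in either. Neighbouring genes share most of their windows, so these windows are not independent. NR4A2 had 18 sites over both lists, against a median of 35 per window, and 18.8% of the windows had as few. Ratios from few sites spread more widely, so its rank is among windows that mostly held more sites.

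**Figure D2:**
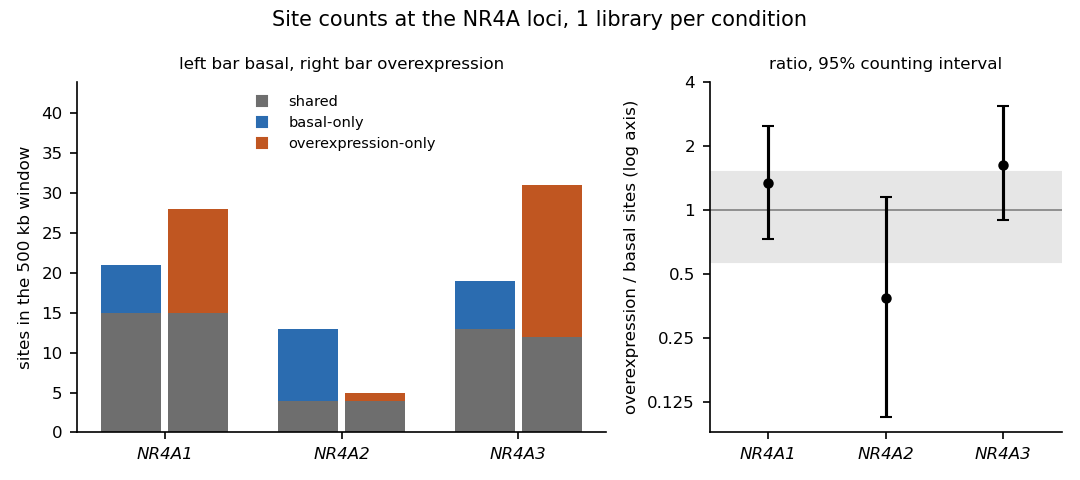
Left, numbers of shared and condition-only FAIRE sites in the 500 kb window of each NR4A gene, with the basal list as the left bar and the overexpression list as the right bar of a pair. Right, ratio of overexpression to basal sites on a log axis with its 95% counting interval, over the central range of all gene windows in grey (0.571 to 1.5) and their median as a line; NR4A2 lies below the grey band, NR4A3 above it and NR4A1 inside it.

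Base composition differed between the lists as a whole, with a mean GC content of 48.8% in basal and 51.9% in overexpression sites. At NR4A1 the means were 54.9% and 56.2%, at NR4A2 48.9% and 62.1%, and at NR4A3 47.2% and 45.3%. The ratio was standardised for the GC content of the basal sites of each locus, without an interval. The GC content of its overexpression sites did not enter. The standardised ratio was 1.12 at NR4A1, 0.431 at NR4A2 and 1.82 at NR4A3. The order of the 3 loci was thus the same with and without this step.

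The ratios also depended on the width of the sites. With sites below the pooled median width of 249 bp left out of both lists, NR4A1 had 11 basal and 26 overexpression sites. The ratio was 2.36 (1.13 to 5.3), past 2-fold and above that of NR4A3, which was 1.27 (0.61 to 2.68). Most basal sites left out at NR4A1 were shared sites whose overexpression partner was wide enough to stay, for some with 199 against 249 bp. The NR4A1 ratio thus counts sites called in both lists as absent from the basal list. NR4A2 then had 7 and 2 sites (0.286, 0.029 to 1.5), and the ratio over both whole lists was 0.912.

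The counts also depended on how far from the gene sites were taken. At NR4A2 the ratio was 0.353 (0.114 to 0.938) within 1000 kb, from 17 basal and 6 overexpression sites, 0.5 (0.134 to 1.61) within 250 kb and 0.571 (0.123 to 2.25) within 100 kb, the last short of 2-fold. Within 100 kb of the gene body, NR4A1 had 12 basal and 13 overexpression sites, NR4A2 had 7 and 4, and NR4A3 had 6 and 5. At NR4A3 the ratio was then 0.833 (0.201 to 3.28), below 1, so the larger number of overexpression sites at this locus came from beyond 100 kb.

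Most basal sites next to the genes were shared, as they were in the whole basal list (18656 of 34423). Within 50 kb of the gene body, 9 of 11 basal sites at NR4A1, 3 of 4 at NR4A2 and 4 of 6 at NR4A3 were shared. In the same range, overexpression-only sites were 3 of 12 at NR4A1, 0 of 3 at NR4A2 and 2 of 5 at NR4A3, against 40.3% of all overexpression sites. The counts are small, and a difference from all sites was not tested.

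At NR4A1, 4 shared sites lay inside the gene. The first, chr12:52417451-52417699 in the basal and chr12:52417351-52417749 in the overexpression list, lay in an intron, with the basal centre 958 bp from the 5′ end of the gene, and was wider on overexpression (249 and 399 bp). Its place in the list, by deposited peak number as a percentage of the list length, was 41.4% at basal SF-1 and 9.35% on overexpression. Lower percentages come first. The median width was 399 bp in the first 10% and 149 bp in the last 10% of each list, but what ordered the peaks is not given in the sources used here. The following intronic sites, at chr12:52419351-52419699 and chr12:52426701-52427049 in the basal list, were 349 bp wide and stood at 24.7% and 9.72%. In the overexpression list the former was 449 bp wide and stood at 33.6%, and the latter had the same edges and stood at 6.48%.

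The NR4A1 site over the internal start had the same 299 bp in both lists and stood at 6.04% at basal SF-1 and 15.5% on overexpression. A basal-only site of 349 bp, chr12:52449151-52449499, lay over an exon further down the gene and was the widest basal-only site of the locus. On the 3′ side, the overexpression-only sites chr12:52457201-52457499 and chr12:52458151-52458399 lay 4.06 and 4.98 kb beyond the gene end, in the interval towards ATG101, which encodes a subunit of the autophagy-initiating ULK complex. Next to them was a shared site that was 149 bp wide in the basal list (chr12:52460951-52461099) and 549 bp in the overexpression list (chr12:52460901-52461449). The added bases contained a CAAGGTCA match. It moved from 53.6% to 14.2% in list position.

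At ATG101 itself, a shared site over an exon near its 5′ end stood at 8.2% and 1.2%, a shared site in its intron with CAAGGTCA matches (chr12:52469151-52469399) at 44.6% and 58.3%, and a basal-only site of 199 bp lay between them. The remaining sites within 50 kb were a shared site in an intron of SMIM41, an intronic shared site of ACVR1B, a type I activin receptor gene, with an AP-1 match, and an overexpression-only site of 149 bp in ACVR1B, 29.6 kb upstream of NR4A1.

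At NR4A2, sites within 50 kb were few and all lay at or in the gene. A shared site just upstream of the 5′ end, chr2:157199051-157199299 in the basal list, was centred 314 bp from it and stood late in both lists (80.4% and 70.7%). A shared site in an intron, chr2:157198051-157198449, was centred 610 bp inside the gene, was 399 bp wide at basal SF-1 and 299 bp on overexpression, and stood at 36.2% and 15.4%. A further intronic site at chr2:157192151-157192549 was 399 bp wide at 30.6% of the basal list and 199 bp wide at 75.9% of the overexpression list. The basal-only site with the CRE, chr2:157189251-157189449, was 199 bp wide, stood at 63.5% and was centred 76 bp upstream of an internal start of NR4A2. No overexpression site lay within 500 bp of it.

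At NR4A3, the gene start was covered by a shared site of 249 bp in the basal (chr9:102584001-102584249) and 349 bp in the overexpression list (chr9:102583901-102584249), at 22.8% and 11.7%. About 2 kb upstream, where the lncRNA genes STX17-DT and ENSG00000237461 are annotated, the basal list had separate sites of 199 and 549 bp (chr9:102581751-102581949 and chr9:102582151-102582699). The overexpression list had a single site of 1149 bp over both (chr9:102581551-102582699), the widest site of the 3 loci. It stood at 10.1%, against 67.6% and 16.7% for the basal sites. A further shared site 3.21 kb upstream (chr9:102580701-102581149 in the basal list) stood at 59.1% and 23.1%. Each of the promoter-side basal sites of NR4A3 thus stood later in its list than its overexpression partner.

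Apart from these, the vicinity of NR4A3 held the overexpression-only site with an NBRE 14.4 kb upstream, an overexpression-only site of 249 bp 7.1 kb beyond the gene end (chr9:102636151-102636399), a basal-only site of 149 bp in an NR4A3 intron (chr9:102611851-102611999, 95.6% of the list), and a basal-only site of 249 bp at the 5′ end of STX17, the gene of an autophagosomal SNARE protein. No overexpression site was centred in the body of NR4A3.

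**Figure D3:**
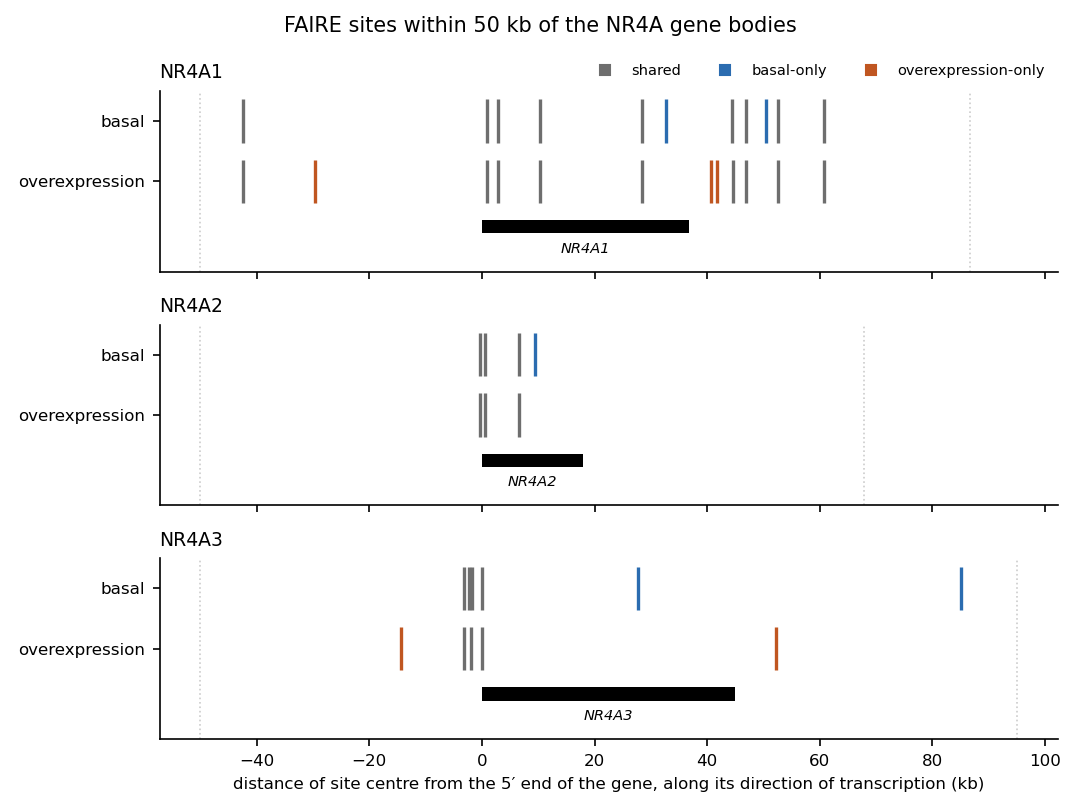
FAIRE sites within 50 kb of the NR4A gene bodies, drawn as ticks at the distance of the site centre from the 5′ end of the gene in kb along the direction of transcription, for the basal and the overexpression list. Grey is shared, blue basal-only and orange overexpression-only, black bars are gene bodies and dotted lines lie 50 kb from each gene end. The sites at the 5′ ends of the annotated gene bodies are grey in all 3 panels, and NR4A2 has no orange tick. The NR4A2 site with the CRE, over an internal start, is blue.

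Shared sites could be compared by width and list position. Of 15 overlapping pairs at NR4A1, 11 were wider in the overexpression list, 3 were equal and 1 was narrower, against 36.2% wider over all 18704 overlapping pairs of the lists. At NR4A2 1 of 4 pairs and at NR4A3 6 of 13 pairs were wider in the overexpression list. The overexpression site of 1149 bp at NR4A3 overlapped separate basal sites. It thus entered more than 1 of the 13 pairs, each time as wider and earlier. An earlier list position in the overexpression list was found for 10 of 15 pairs at NR4A1, 3 of 4 at NR4A2 and 8 of 13 at NR4A3, against 46.8% of all pairs. Site edges lay on a 50 bp grid, so differences of 50 bp are 1 grid step, and 6 of the 11 wider pairs at NR4A1 differed by that step.

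Among the shared sites farther than 50 kb from the NR4A gene of their window, some shifted far in position. A shared site covered an annotated start and an exon of ACVRL1, which encodes an endothelial receptor of the TGF-beta family. This site was 199 bp wide at 80% of the basal list and 349 bp wide at 4.71% of the overexpression list (chr12:52306051-52306399 there). It carried both a CAAGGTCA and a CAAGGCCA match. In an intron of INVS, the gene of the ciliary protein inversin, a shared site 406 kb downstream of the NR4A3 5′ end went from 299 bp at 94.6% to 449 bp at 9.37%. In the other direction, a shared site centred 402 bp upstream of KRT80 (chr12:52586051-52586349 in the basal list) stood at 11.6% and 62.2%.

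**Figure D4:**
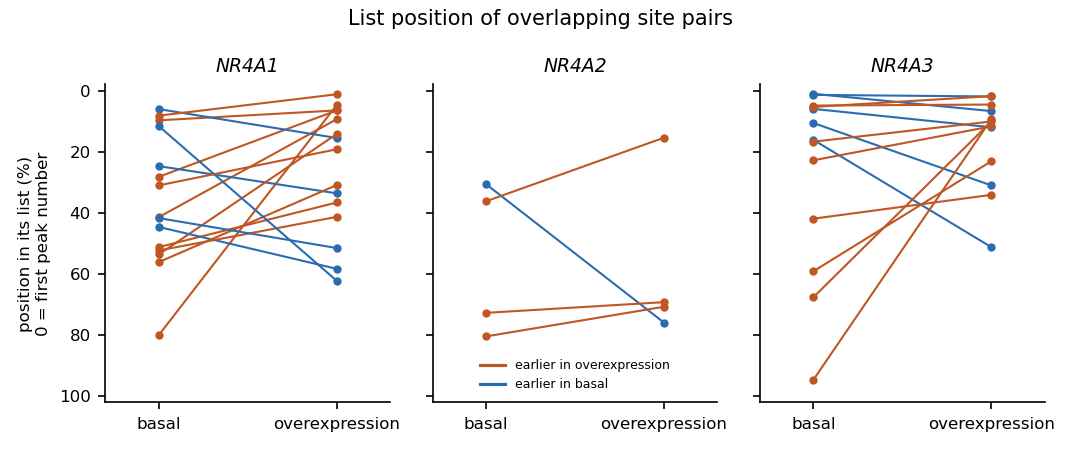
Position of overlapping sites in the basal and the overexpression list, as peak number in percent of the list length with 0 at the top, 1 line per pair. Orange lines are pairs that stood earlier in the overexpression list (10 of 15 at NR4A1, 3 of 4 at NR4A2, 8 of 13 at NR4A3). Blue lines are pairs that stood earlier in the basal list. At NR4A3, 1 overexpression site enters more than 1 pair.

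The stretch upstream of NR4A3, chr9:102061901-102431349 (369 kb), held 12 overexpression-only sites, 4 shared sites and 1 basal-only site. It ran from 522 to 153 kb upstream of the gene, so 11 of the 12 overexpression-only sites lay inside the 500 kb window and the first lay just outside. The overexpression-only sites did not form an unbroken row: shared or basal-only sites split them into 5 runs, the longest of 4 sites with the first included. Inside the window the longest unbroken run had 3 sites, and there were 4 runs of that length. Over all 8786 runs of overexpression-only sites, 9.22% had at least 3 sites and 3.19% at least 4.

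As a background, a stretch of the same length was started at each overexpression-only site. At least 12 overexpression-only and at most 1 basal-only site were found in 0.159% of the 12585 stretches, and at least 12 overexpression-only sites with any number of basal-only sites in 0.461%. The medians were 3 overexpression-only and 2 basal-only sites. The stretch had been chosen for this composition, and overlapping stretches are counted separately here. Outside the stretch, the NR4A3 window held 14 basal and 16 overexpression sites, a ratio of 1.14 (0.523 to 2.53), with 8 overexpression-only sites.

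From its far end, the stretch began with the overexpression-only sites chr9:102061901-102062249 (349 bp, 41.6% of the list) and chr9:102112501-102112699 (199 bp, 58.3%), both intergenic. The former had an AP-1 match and the latter an AAGGTCA match. A site of 249 bp at 28.7%, chr9:102130601-102130849, lay in an intron of the lncRNA genes NAMA and ENSG00000287955 and was the earliest in the list among the 12. The latest was chr9:102184101-102184199, with 99 bp at 99.9%. For these 4 sites the nearest protein-coding gene was SEC61B, a subunit of the endoplasmic reticulum translocon, which ends 69.2 kb before the first of them. For the other 8 overexpression-only sites it was NR4A3.

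The middle of the stretch lay in introns of STX17-DT and ENSG00000237461, in part also of ENSG00000234860. It held chr9:102307851-102307999 (149 bp, 95.6%), chr9:102325801-102326049 (249 bp, 37.3%, AP-1 match), chr9:102332651-102332799 (149 bp, 58.2%) and chr9:102355551-102355799 (249 bp, 29.7%). The basal-only site of the stretch, with an SF-1 match, lay between the first and the second of these and stood at 31.6% of the basal list. A gap of 124 kb between overexpression-only site centres, the widest of the stretch, separated this part from the SEC61B side.

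Towards NR4A3, still in introns of the same lncRNA genes, followed chr9:102363051-102363299 (249 bp, 85.1%, NBRE match), chr9:102363751-102364149 (399 bp, 42.5%), chr9:102382551-102382649 (99 bp, 95.3%, SF-1 match) and chr9:102431151-102431349 (199 bp, 77.5%). The second of these was the widest overexpression-only site of the stretch. The closest overexpression-only sites of the stretch had centres 0.775 kb apart, and the median gap was 18.6 kb. The next overexpression-only site on the NR4A3 side lay 138 kb beyond the stretch and the next on the other side 122 kb before it.

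The shared sites of the stretch were wider and stood earlier in the overexpression list than the median overexpression-only site in it (224 bp, 58.3%), and all 4 were narrower and later in the overexpression list than in the basal list. The site at chr9:102388401-102388999 was 599 bp wide at 1.05% of the basal list and 549 bp wide at 6.7% of the overexpression list. That at chr9:102356701-102357149 went from 449 bp at 5.97% to 299 bp at 12%. The site at chr9:102428901-102429249 went from 349 bp at 10.6% to 249 bp at 31%, and that at chr9:102213701-102213999 from 299 bp at 16.1% to 249 bp at 51.2%. The stretch thus held 12 sites called in the overexpression list alone beside 4 sites that were wider and earlier in the basal list.

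**Figure D5:**
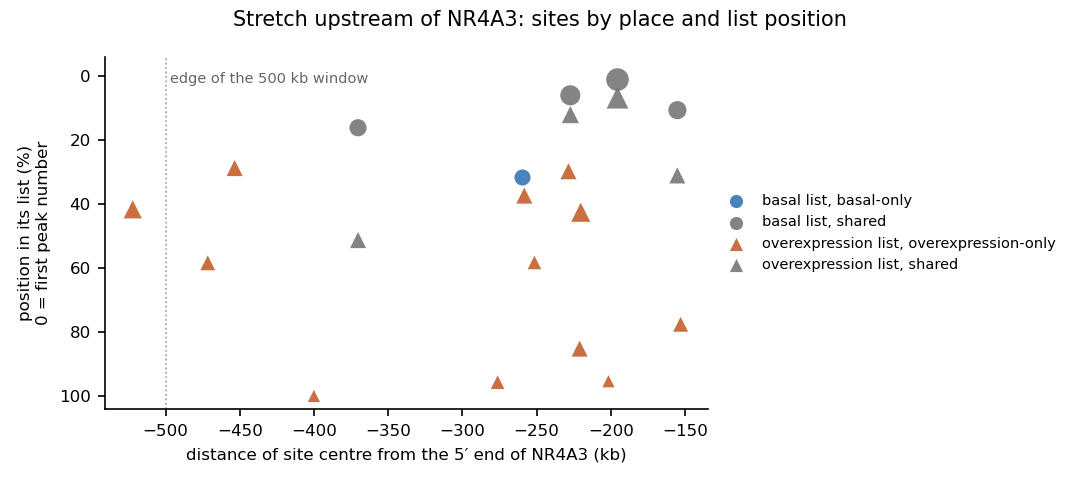
Sites of the stretch upstream of NR4A3 by the distance of their centre from the 5′ end of the gene in kb and by position in their list in percent, 0 being the first peak number; circles are basal and triangles overexpression sites, larger symbols are wider sites. Blue is basal-only, orange overexpression-only and grey shared; the grey triangles lie below the grey circles at the same place, and the orange triangles spread from 28.7% to 99.9%.

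Widths of the 12 overexpression-only sites ran from 99 to 399 bp, and their GC content from 33.7% to 57.6% with a mean of 43.6%, against 48.7% for all overexpression-only sites. With sites below the pooled median width left out, 6 overexpression-only sites remained in the stretch.

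Letter matches to receptor elements were present in a minority of the sites of each locus. In the overexpression list an SF-1 match was present in 6 of 28 sites at NR4A1 (21.4%, 8.3 to 41), 0 of 5 at NR4A2 (interval up to 52.2%) and 3 of 31 at NR4A3 (9.68%, 2.04 to 25.8), against 12.6% of all overexpression sites. An NBRE match was present in 2 of 28, 0 of 5 and 2 of 31 of these sites, against 2.26% of all. In the stretch, 1 of 12 overexpression-only sites had an SF-1 match (8.33%, 0.211 to 38.5) and 1 of 12 an NBRE match, against 14% and 2.57% of all overexpression-only sites. The intervals of the stretch include both of these shares. The SF-1 match in the overexpression-only site was CAAGGCCA, whereas the basal-only site of the stretch had a CAAGGTCA match. The 4 shared sites of the stretch had no match to SF-1, NBRE, AAGGTCA, CRE, AP-1 or CTCF.

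All NBRE matches at NR4A3 lay in overexpression-only sites, namely the printed site of the stretch and the printed site 14.4 kb upstream of the gene. At NR4A1 the matches lay in the overexpression-only site of SCN8A, a sodium channel gene, and in a shared site downstream of KRT80 (chr12:52557801-52557999 in the basal list). NR4A2 had an AAGGTCA match in its only overexpression-only site, chr2:157316401-157316599, in an intron of GPD2, the mitochondrial glycerol-3-phosphate dehydrogenase gene. Its basal-only sites had SF-1 matches in 2 of 9 (22.2%, 2.81 to 60), against 13.4% of all basal-only sites.

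Matches to the CTCF motif, for which up to 1 mismatch was allowed, were present in 11 of 28 overexpression sites at NR4A1 (39.3%, 21.5 to 59.4), 1 of 5 at NR4A2 and 1 of 31 at NR4A3 (3.23%, 0.0816 to 16.7), against 16% of all overexpression sites. In that list the intervals of NR4A1 and NR4A3 did not overlap, and the share of all sites lay below the former and inside the latter. In the basal list, 7 of 21 sites at NR4A1 (33.3%, 14.6 to 57) and 1 of 19 at NR4A3 (5.26%, 0.133 to 26) had a CTCF match. These intervals overlapped, and both included the 17.5% of all basal sites. A difference between the loci was not tested. None of the 12 overexpression-only sites of the stretch had a CTCF match (interval up to 26.5%). AP-1 matches were present in 5 of 28, 0 of 5 and 1 of 31 overexpression sites, and in 5.59% of all.

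Beyond the sites next to the genes, the wide condition-only sites lay at other genes. At NR4A1 the widest overexpression-only site, chr12:52345001-52345449 (449 bp), lay 0.259 kb upstream of ACVR1B. The widest basal-only sites after that in NR4A1 itself lay in introns of SCN8A (299 bp, with an SF-1 match) and ACVR1B (249 bp). At NR4A2 the basal-only sites reached at most 249 bp, among them sites in an intron of LINC01876 and on the upstream side of GPD2. At NR4A3 the widest sites outside the stretch and the promoter were shared, among them a site in an intron of ERP44, a thiol chaperone gene, of 599 bp at basal SF-1 and 649 bp on overexpression. An overexpression-only site of 349 bp in an INVS intron (chr9:102983751-102984099), with an SF-1 match, stood at 8.84% of the list, earlier than any other overexpression-only site of the 3 loci.

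At the edges of the windows, the outermost NR4A1 sites inside were shared at 491 kb on the 5′ side and overexpression-only at 320 kb on the 3′ side, and the first sites outside were shared, at 517 and 613 kb. For NR4A2 the outermost basal sites inside lay at 478 and 247 kb and the next ones outside at 1172 and 714 kb, all basal-only. The overexpression list had no site between 1922 kb on the 3′ side and the gene, and its first site beyond the window on the 5′ side lay at 985 kb. For NR4A3 the sites just inside lay at 471 kb (overexpression-only) and 486 kb (shared), and those just outside at 522 and 545 kb.

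The genes whose site pattern came nearest to each member were taken from the counts of shared, basal-only and overexpression-only sites within 10 kb, from 10 to 100 kb and from 100 to 500 kb, by Euclidean distance over these 9 counts. For NR4A1 they were ARFGEF2, UNC5B and GAB2, at distances of 3, 3.61 and 3.61 sites. For NR4A2 they were AKR1E2, FAM98A and MTR (2.24, 2.24 and 2.45), and for NR4A3 the neighbours ZC3HAV1 and ZC3HAV1L and then ASH2L (4.12, 4.58 and 4.69). They were taken from 20113, 20158 and 20149 genes for their likeness, which is a description.

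A list of 41 genes around the NR4A receptors was looked at within 10 kb of the gene body: 16 that lead to their induction, 8 partners and corepressors, 6 adrenal target genes and 11 other immediate-early genes. A shared site was found at 32 of the 41 genes, a basal-only site at 21 and an overexpression-only site at 17, and over all 20163 protein-coding genes the shares were 59.6%, 36.9% and 36.8%. Among the 11 immediate-early genes, 10 had a shared site, 6 a basal-only site and only ATF3 an overexpression-only site. FOS, the partner of JUN in AP-1, had a basal-only site and no other, and DUSP1, a MAP kinase phosphatase gene, had 2 basal-only sites beside a shared one. Within 100 kb, 9 of these 11 genes had a basal-only and 7 an overexpression-only site, against 76.2% and 75.7% of all protein-coding genes.

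Of the 16 inducers, 11 had a shared, 9 a basal-only and 9 an overexpression-only site. Over all protein-coding genes, the shares within 10 kb were 59.6%, 36.9% and 36.8%. MC2R, the ACTH receptor gene, had an overexpression-only site and no other. CRTC3, a coactivator of CREB, had 2 basal-only and 4 overexpression-only sites, CAMK1, a calcium-dependent kinase gene, had 3 overexpression-only sites beside a shared one, and MEF2A, a calcium-responsive transcription factor gene, had 2 basal-only sites. Of the 8 partners, 6 had a shared, 5 a basal-only and 5 an overexpression-only site. Among them, NR0B1 (DAX-1), a corepressor of SF-1, had 2 overexpression-only sites and no other. RXRG, a retinoid X receptor gene, had 2 basal-only sites and no other. Within 100 kb, 12 inducers had a basal-only and 15 an overexpression-only site, and 8 and 7 of the partners did. The shares of all protein-coding genes at that range were 76.2% and 75.7%.

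Of the 6 adrenal target genes, 5 had a shared site, 1 (HSD3B2) a basal-only site and 2 an overexpression-only site. The shares of all protein-coding genes were 59.6%, 36.9% and 36.8%. Within 100 kb, 4 of the 6 had a basal-only and 6 an overexpression-only site, against 76.2% and 75.7% of all protein-coding genes. The 2 genes with an overexpression-only site within 10 kb were STAR and CYP11A1. STAR, which delivers cholesterol to the inner mitochondrial membrane, had 2 overexpression-only and 2 shared sites. CYP11A1, the side-chain cleavage enzyme, had 1 and 3. CYP11B2, the aldosterone synthase gene, had no site within 10 kb in either list. The members themselves had 5 shared basal sites at NR4A1, 3 at NR4A2 and 4 at NR4A3 in this range, with 1 basal-only site each, and 2, 0 and 1 overexpression-only sites.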

How the data were processed

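FAIRE-seq peak lists of 1 basal and 1 SF-1 overexpression library of H295R/TR SF-1 cells were used as deposited, grouped by the labels. The submitters' processing notes name hg19 and CASAVA 1.8; the FAIRE peak caller and its threshold are not given in the sources used here. The deposited score was 1000 at every site and held no information, so site width and peak number were used. Depth per sample is unknown.

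Coordinates were compared with GRCh37 and are 1-based. Genes were those of GENCODE release 44 mapped to GRCh37. Overlaps, windows, motif matches (both strands, whole site) and intervals were computed in Python 3.11.15 with numpy 2.4.6, pandas 2.3.3, scipy 1.17.1 and pysam 0.24.0, after samtools 1.23.1 had indexed the genome. Overlap classing, merging, window counts and the SF-1 letter search were tested on simulated lists and sequences. The intervals and the CTCF search were not tested in this way. Clopper-Pearson and exact binomial intervals are at 95%. No test between conditions was possible with 1 library each.

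The members, motifs and gene lists were chosen with earlier results of these data known. Named sites were those of the stretch, those within 50 kb of an NR4A gene, the 3 widest of each class and those at the window edges; named genes were the members, genes at or nearest to such sites and the list of 41. Others named in the shared-site comparison were chosen after their values were seen. The upstream cluster had been defined as the longest unbroken run of overexpression-only sites; since the named stretch is no such run, both are given. The REST motif was not searched. The sequences of 2 further sites are not reported here. Alternatives covered overlap, width, list length, merging, window, GC content and the sequence searched.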

Additional observations from a re-analysis of the deposited data

How the results depend on the processing

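With 27 values and 161 recomputed ones, 133 stayed within 1.5 times the main count or within the 95% interval of the main share or ratio, and 28 did not. No paired analysis was possible because each condition had 1 library, and for the same reason no library could be left out. Stricter overlap, sites within 500 bp taken as shared and sites within 500 bp merged moved none of these values past those limits. With equal list length, the longest unbroken run of overexpression-only sites in the NR4A3 window had 5 sites in place of 3. A basal site at 94.6% of its list, chr9:102989901-102990199, was then left out, and its overexpression partner counted as overexpression-only. This run lay in introns of INVS on the 3′ side of NR4A3, outside the stretch.

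With sites at least as wide as the pooled median, NR4A1 kept 11 basal sites, NR4A2 7 basal and 2 overexpression sites, and NR4A3 19 overexpression sites. The ratio was 2.36 (1.13 to 5.3) at NR4A1, above the 1.27 of NR4A3, with narrow basal partners of shared sites left out. The overexpression-only share was then 69.2% at NR4A1, as narrow partners were lost, and 36.8% at NR4A3, the stretch held 6 overexpression-only sites, and 0 of those had an SF-1 match.

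Windows of another size changed counts by construction. With 250 kb, NR4A3 had 12 basal and 18 overexpression sites. With 1000 kb, NR4A1 had 42 and 51, and NR4A3 50 and 64. With 100 kb, NR4A1 had 12 and 13, NR4A2 had 7 basal sites and an overexpression-only share of 0%, and NR4A3 had 6 and 5, a ratio of 0.833 and an overexpression-only share of 40%. The ratio stayed above 1 at NR4A1 and below 1 at NR4A2 in every alternative. Its interval left out 1 at NR4A1 with the width limit and at NR4A2 with 1000 kb (0.353, 0.114 to 0.938). Shared sites entered both totals in these intervals as well.

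Flanks as wide as the site were read 1000 bp beyond each of its edges. At the overexpression-only sites of the stretch, 0% of flanks had an SF-1 match and 0% an NBRE match. Flanks of all overexpression-only sites had them in 2.54% and 0.91%. At the NR4A1 overexpression sites, 0% of flanks had an NBRE match and 10.7% an SF-1 match, against 1.1% and 3.17% for all overexpression sites. Within 100 kb, 33 genes of the list of 41 had a basal-only and 35 an overexpression-only site, against 76.2% and 75.7% of all protein-coding genes. The search for REST matches was not run. Unknown depth limits each comparison of the lists, and the cause of the differences was not tested.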
